A study of Mus musculus with 20 samples.

Results

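The 9 genes described here encode cathepsins, the proteases of the endosome and lysosome: Ctse, Ctsd, Ctsa, Ctsb, Ctsl, Ctss, Ctsh, Ctsc and Ctsz. They were selected on the array values themselves, because Ctse had the largest difference between TAK1-deleted and wild type cells at 24 h, and the other 8 were taken with it by gene symbol. They are 9 of the 11968 genes tested, each is read by 1 of the 35556 probe sets, and all 9 passed the filter on low values. The cells were splenic B cells of C57BL/6 mice of mixed sex, 8 to 12 weeks old, purified by magnetic removal of cells bearing CD43 and cultured in RPMI with fetal bovine serum. Wild type cells carried the label mb-1/TAK1+/+ and TAK1-deleted cells the label mb-1/TAK1f/f, so both genotypes carried mb-1, and f/f marks alleles flanked by recombinase sites. The mb-1 gene (Cd79a) is active in the B lineage, where a recombinase driven from it acts. The labels quoted name no recombinase, and deletion was not measured here in any cell type of the preparation. Cells of each genotype were unstimulated (0 h) or had been kept for 1, 3, 6 or 24 h with 10 µg/ml of anti-IgM, which binds surface IgM and so triggers the receptor for antigen. Each of the 10 groups held 2 arrays. The labels do not say whether the 2 came from separate mice or cultures, nor whether the unstimulated cells were kept in culture, so p-values measure only the spread between these arrays, which may be technical.

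Cathepsins are made as inactive precursors, carried to the lysosome largely by mannose 6-phosphate sorting, and activated as the compartment becomes acid. In B cells they degrade antigen taken up through the B cell receptor and trim the invariant chain from MHC class II molecules before peptides are loaded. The family falls into aspartic proteases (Ctse, Ctsd), a serine carboxypeptidase (Ctsa) and papain-like cysteine proteases (Ctsb, Ctsl, Ctss, Ctsh, Ctsc, Ctsz). Cystatins and stefins inhibit the cysteine proteases. TAK1, the kinase encoded by Map3k7, relays signals from the B cell receptor and other receptors to IκB kinase and the MAP kinase cascades.

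All values are RMA values on the log2 scale, so a difference of 1 is a 2-fold change, and differences are given ± standard error from limma. A gene was called at an adjusted p below 0.05 over all 11968 genes. All 12 pan B cell markers lay above the median of all values in every group, with mean levels of 11.4 to 12.9 on single arrays. The Map3k7 probe set read 10.16 to 10.71 in wild type and 10.40 to 10.76 in TAK1-deleted arrays. The part of the gene that was deleted is not given in the sources used here, so this probe set does not check the genotypes. Markers of other cells were present at 0 h in both genotypes and changed with time and genotype, and their values stand beside the results below. In bulk samples such as these, fewer cells of a type and less RNA per cell cannot be told apart. The time comparisons within a genotype share their 0 h arrays. All later groups had anti-IgM, so effects of anti-IgM and of time in culture cannot be told apart in them.

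Ctse, an aspartic protease of endosomes rather than mature lysosomes, was high in every TAK1-deleted array and lower in every wild type array. In wild type cells the 2 arrays read 10.15 and 9.84 before stimulation, 10.40 and 10.04 after 1 h, 9.54 and 9.34 after 3 h, 9.61 and 9.38 after 6 h, and 7.22 and 7.04 after 24 h. In TAK1-deleted cells the pairs were 13.13 with 13.07, 12.97 with 12.80, 12.45 with 11.91, 12.49 with 12.14, and 12.29 with 12.12 at the same times. The lowest TAK1-deleted array, at 11.91, stood above the highest wild type array, at 10.40. The order of the group means was TAK1-deleted at 0, 1, 6, 24 and 3 h, followed by wild type at 1, 0, 6, 3 and 24 h. Neighbours in that order overlapped among the TAK1-deleted 6, 24 and 3 h groups, between wild type 1 and 0 h, and between wild type 6 and 3 h. The wild type 24 h arrays were the only ones with Ctse below the median of all values (7.45).

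**Figure D1:**
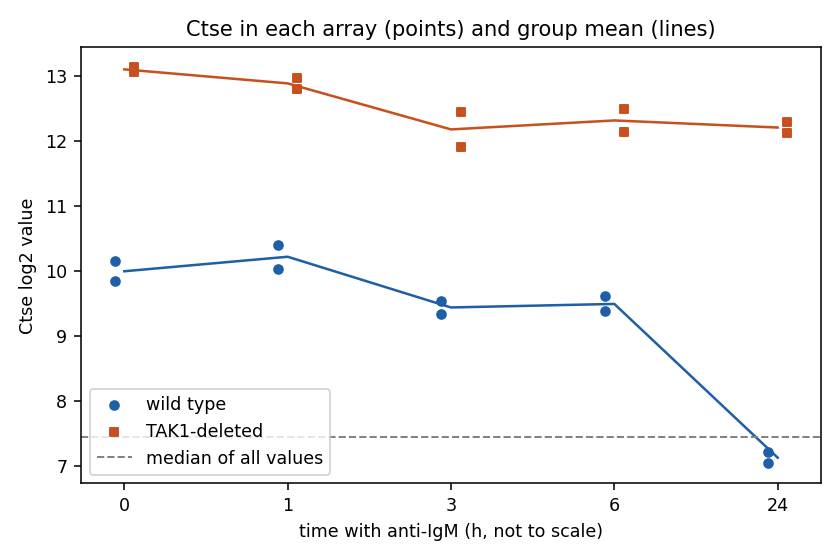
Ctse on the log2 scale (vertical axis) against hours of anti-IgM (horizontal axis), with 1 point for each array and a line through the mean of the 2 arrays of each group. TAK1-deleted arrays lie between 11.91 and 13.13 at every time, and wild type arrays go from about 10 at 0 h to 7.22 and 7.04 at 24 h.

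The genotype difference in Ctse was present before stimulation. TAK1-deleted cells exceeded wild type by 3.10 ± 0.19 at 0 h, an 8.60-fold difference (limma adjusted p = 1.11e-07). It was 2.67 ± 0.19 at 1 h (6.34-fold, adjusted p = 4.4e-07), 2.74 ± 0.19 at 3 h (6.67-fold, adjusted p = 5.53e-07) and 2.82 ± 0.19 at 6 h (7.07-fold, adjusted p = 4.51e-07). At 24 h, the time by which the genes were selected, the difference was 5.08 ± 0.19, or 33.7-fold. Both 24 h groups entered that selection, so no Ctse value at 24 h is given a test. The next genes in that comparison were BC018473 at 2.97 and Ngp at 2.85. RMA values keep a background that is not subtracted to 0, so a fold against a dim group such as wild type at 24 h can be understated.

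At 24 h wild type values were far below those of 0 h, and TAK1-deleted values were also below theirs. In wild type cells 24 h minus 0 h was -2.87 ± 0.19, or 7.29-fold lower, and most of this lay after 6 h (24 h minus 6 h was -2.36 ± 0.19). In TAK1-deleted cells 24 h minus 0 h was -0.89 ± 0.19 and 24 h minus 6 h was -0.11 ± 0.19. The latter turned to 0.0666 without replicate 1 of 6 h. Earlier times moved less. Wild type Ctse was 0.22 ± 0.19 higher at 1 h without a call (adjusted p = 0.435), and fell by 0.56 ± 0.19 at 3 h (adjusted p = 0.0236) and by 0.50 ± 0.19 at 6 h (adjusted p = 0.0398). TAK1-deleted Ctse differed from 0 h by -0.22 ± 0.19 at 1 h without a call (adjusted p = 0.51), and fell by 0.92 ± 0.19 at 3 h (adjusted p = 0.000823) and by 0.79 ± 0.19 at 6 h (adjusted p = 0.00345). The wild type 3 h call was lost without replicate 1 of 0 h (adjusted p = 0.19) or replicate 2 of 3 h (0.147). The wild type 6 h call was lost without replicate 1 of 0 h (0.255) or replicate 1 (0.0536) or 2 (0.233) of 6 h, and the TAK1-deleted 6 h call without replicate 2 of 6 h (0.0577).

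Markers of other cells also changed over these times. In TAK1-deleted cells the monocyte or macrophage mean level on the 2 arrays was 7.09 to 7.16 at 6 h, below its levels at 0 and 24 h. The Ctse mean there was 12.31 at 6 h and 12.21 at 24 h. Of 13 neutrophil markers tested, 12 fell in wild type cells from 0 to 24 h, where their mean level went from 9.05 to 9.16 on the 2 arrays at 0 h to 7.13 to 7.17 at 24 h and 10 of the 13 ended below the median of all values. In TAK1-deleted cells 6 of them fell and 1 rose, or 4 of the 13 were called without replicate 1 of 24 h, and the mean level was 9.21 to 9.30 at 0 h and 8.84 to 8.87 at 24 h. Of 17 monocyte or macrophage markers tested, 16 fell and 1 rose in wild type and 11 fell and 3 rose in TAK1-deleted cells. Their mean level over 18 probe sets went from 10.04 at 0 h to between 7.62 and 7.68 at 24 h in wild type, and from 9.95 to 10.18 at 0 h to 8.99 to 9.03 at 24 h in TAK1-deleted cells. At 24 h 11 of these 18 lay below the median of all values in wild type and 4 in TAK1-deleted cells. Over all genes 20.2% were called lower and 23.6% higher from 0 to 24 h in wild type, and 12.7% and 14.9% in TAK1-deleted cells. At 0 h, where the Ctse difference was 3.10, the same monocyte or macrophage list had 1 lower and 0 higher markers (0 calls without any 1 of the 4 arrays) and the neutrophil list 3 higher and 1 lower, while 10 of 10 erythroid markers were higher (median difference 1.56). The erythroid mean level was 7.92 to 8.04 in wild type and 9.64 to 9.97 in TAK1-deleted cells at 0 h, and 6.77 to 7.01 against 7.10 to 7.11 at 24 h. Among the neutrophil calls at 0 h Mpo differed by 1.81 ± 0.15 (limma adjusted p = 1.91e-06), Elane by 1.40 ± 0.27 (0.00802) and Retnlg by -1.05 ± 0.14 (0.000226). The Elane call did not hold with arrays left out. With the replicate number as a block the neutrophil list had 6 higher and 6 lower markers at 0 h. The monocyte or macrophage list then had 2 higher and 1 lower. Over all genes 1.5% were called higher and 0.819% lower at 0 h, or 4.1% and 2.89% with the block. The part of these cells in the Ctse values was not tested.

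**Figure D2:**
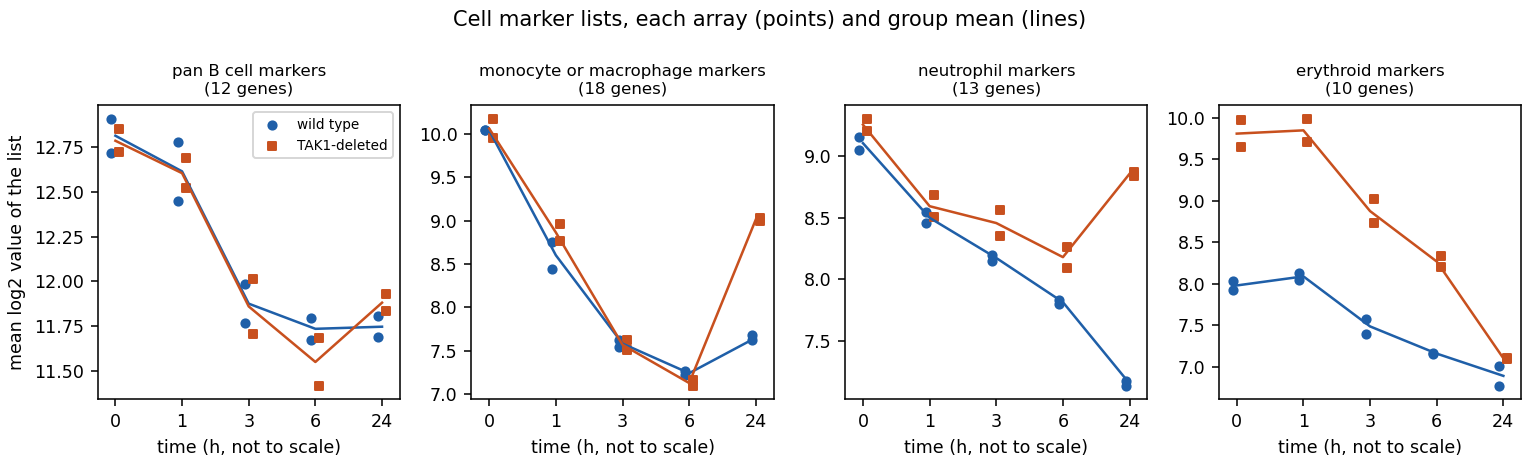
Mean log2 level of the markers of pan B, monocyte or macrophage, neutrophil and erythroid cells (vertical axis, 1 scale a panel) against hours of anti-IgM (horizontal axis, times evenly spaced), 1 point for each array and a line through each group mean. Mean levels of neutrophil and of monocyte or macrophage markers are close between genotypes at 0 h and higher in TAK1-deleted cells at 24 h. Single neutrophil markers differed in both directions at 0 h (3 called higher, Mpo and Elane among them, and 1 lower, Retnlg). Erythroid mean levels are higher in TAK1-deleted cells at 0 h.

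The genes whose values ran most like those of Ctse over the 20 arrays were Mpo (Pearson r = 0.947), Ctsg (0.918), Elane (0.913), Prtn3 (0.905), BC018473 (0.893) and Ngp (0.889). The arrays share their genotype and time groups, so r is a description with no p. They include the 24 h arrays on which Ctse was selected. A genotype difference at 24 h in genes picked by r is therefore no separate result. Mpo, Ctsg, Elane and Prtn3 encode myeloperoxidase and the serine proteases of neutrophil azurophil granules, and Ngp a neutrophil granule protein. Mpo had group means of 8.55 in wild type and 10.36 in TAK1-deleted cells at 0 h, and of 7.34 and 9.57 at 24 h. Ctsg, a granule serine protease of another family than the 9 genes, had means of 6.84 and 8.38 at 0 h and of 6.44 and 8.06 at 24 h. Ngp had means of 11.09 and 11.74 at 0 h and of 9.18 and 12.03 at 24 h. BC018473, named here only by its clone symbol, had means of 6.57 and 11.40 at 0 h and of 6.63 and 9.60 at 24 h, and whether its genotype difference changed with time was not tested here. Among the other 8 cathepsins Ctsl ran most like Ctse (r = 0.754, rank 45 of the genes tested). The rest lay between 0.354 for Ctsa and -0.425 for Ctsz.

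**Figure D3:**
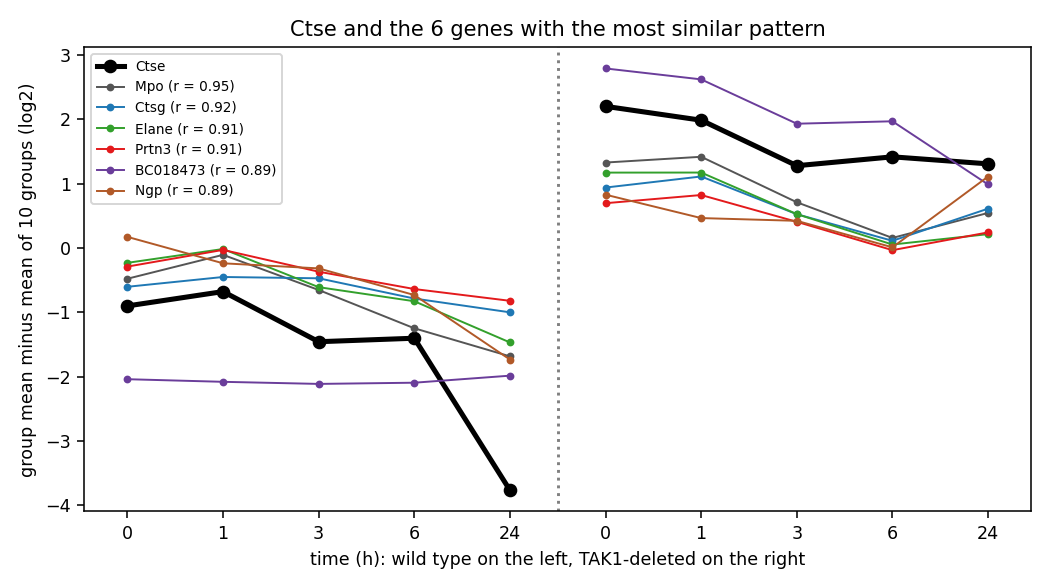
Group mean log2 value minus the gene's own mean over the 10 groups (vertical axis), for Ctse and the 6 genes with the highest Pearson r with it, over time in wild type (left) and TAK1-deleted (right) cells (horizontal axis, times evenly spaced). Each gene is higher in TAK1-deleted than in wild type cells at 24 h, which is part of how genes like Ctse were picked and no separate result.

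Ctsd, the main aspartic protease of lysosomes, fell in both genotypes through 6 h, stayed low in wild type at 24 h and rose again in TAK1-deleted cells. The wild type arrays read 11.61 and 11.66 unstimulated, then 11.19 and 11.10 after 1 h, 10.52 and 10.50 after 3 h, 10.47 and 10.51 after 6 h and 10.70 and 10.57 after 24 h. The TAK1-deleted arrays read 11.65 and 11.34, 11.17 and 10.86, 10.79 and 10.43, 10.50 and 10.43, and 11.72 and 11.69 at the same times. The genotypes overlapped at each time from 0 to 6 h, and at 24 h both TAK1-deleted arrays stood about 1 above both wild type arrays. Wild type Ctsd fell by 1.15 ± 0.14 at 6 h (limma adjusted p = 5.33e-06) and from 0 to 24 h by 1.00 ± 0.14 (adjusted p = 2.21e-05). TAK1-deleted Ctsd fell by 1.03 ± 0.14 at 6 h (adjusted p = 2.25e-05), rose by 1.24 ± 0.14 from 6 to 24 h (adjusted p = 1.06e-05) and at 24 h was 0.21 ± 0.14 above 0 h without a call (adjusted p = 0.309). At 24 h TAK1-deleted exceeded wild type by 1.07 ± 0.14, or 2.10-fold (adjusted p = 9.8e-05). From 0 to 6 h the genotype differences lay between -0.14 and 0.10 with adjusted p of at least 0.841. The difference between genotypes in the change from 0 to 24 h was 1.21 ± 0.20 (adjusted p = 0.000897). The falls at 1 h, of 0.49 ± 0.14 in wild type (adjusted p = 0.0155) and 0.48 ± 0.14 in TAK1-deleted cells (adjusted p = 0.0216), did not hold with arrays left out. The first lost its call without replicate 1 (adjusted p = 0.0595) or 2 (0.0702) of 0 h or replicate 2 of 1 h (0.0969), and the second without replicate 1 of 0 h (0.244) or replicate 2 of 1 h (0.243).

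Ctsl, a cysteine endoprotease that trims the invariant chain in thymic epithelium and works more broadly in lysosomes, had the largest tested genotype difference of the 9 genes at 24 h. The wild type arrays read 8.93 and 9.03 unstimulated, then 9.28 and 9.27 after 1 h, 8.48 and 8.40 after 3 h, 8.13 and 8.42 after 6 h and 7.79 and 7.76 after 24 h. The TAK1-deleted arrays read 9.71 and 9.45, 9.49 and 9.34, 8.60 and 8.58, 8.60 and 8.63, and 9.33 and 9.40. Every TAK1-deleted array stood above both wild type arrays of its time, by little at 1 and 3 h and by over 1.5 at 24 h. At 24 h TAK1-deleted exceeded wild type by 1.59 ± 0.12, or 3.01-fold (limma adjusted p = 1.09e-06). Wild type Ctsl fell by 1.20 ± 0.12 from 0 to 24 h (adjusted p = 1.19e-06). TAK1-deleted Ctsl fell by 0.96 ± 0.12 at 6 h (adjusted p = 1.68e-05), rose by 0.75 ± 0.12 from 6 to 24 h (adjusted p = 0.000481) and ended at a difference of -0.22 ± 0.12 from 0 h without a call (adjusted p = 0.235). The difference between genotypes in the change from 0 to 24 h was 0.99 ± 0.18 (adjusted p = 0.002). Wild type cells moved the other way after 6 h, with a fall of 0.49 ± 0.12 (adjusted p = 0.0101) that lost its call without replicate 2 of 6 h (0.157) or of 24 h (0.0574). A difference of 0.60 ± 0.12 at 0 h (adjusted p = 0.015) rested on few arrays. It lost its call without replicate 1 of wild type (0.162), replicate 1 of TAK1-deleted (0.211) or replicate 2 of wild type (0.0524) cells, and with only the 0 h arrays in the fit (0.348).

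Of the 6 genes that rose from 6 to 24 h in TAK1-deleted cells, the promoter windows of the 4 with an entry in the table used are shown: Ctsd, Ctsc, Ctsl and Ctss. RefSeq windows of 300 bases on GRCm38.p6 (250 before a start site and 50 after) were found for 6 of the 9 genes, 7 windows in all. The 250 bases before the start are printed 5′ to 3′ on the gene's strand, with capitals for CACGTG, the palindromic E-box core bound by the MiT/TFE factors of lysosomal genes and by other factors. They are Ctsd at chr7:142387828-142388077 on the minus strand, Ctsc at chr7:88277835-88278084 on the plus strand, Ctsl at chr13:64370521-64370770 on the minus strand and Ctss at chr3:95526536-95526785 on the plus strand.
Ctsd: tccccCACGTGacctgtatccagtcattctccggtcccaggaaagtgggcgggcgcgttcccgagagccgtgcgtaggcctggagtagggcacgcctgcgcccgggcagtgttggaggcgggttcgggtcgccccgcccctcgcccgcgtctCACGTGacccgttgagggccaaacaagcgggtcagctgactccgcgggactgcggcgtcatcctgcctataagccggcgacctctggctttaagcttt
Ctsc: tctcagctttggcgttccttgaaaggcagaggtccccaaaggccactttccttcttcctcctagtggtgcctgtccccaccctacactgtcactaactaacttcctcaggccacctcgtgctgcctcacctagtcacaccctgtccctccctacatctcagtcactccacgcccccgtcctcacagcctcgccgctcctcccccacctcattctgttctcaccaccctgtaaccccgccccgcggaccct
Ctsl: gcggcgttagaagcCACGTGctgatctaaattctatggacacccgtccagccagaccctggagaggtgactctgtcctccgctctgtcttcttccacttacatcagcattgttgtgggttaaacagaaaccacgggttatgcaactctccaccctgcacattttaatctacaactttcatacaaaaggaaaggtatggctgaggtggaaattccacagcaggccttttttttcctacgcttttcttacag
Ctss: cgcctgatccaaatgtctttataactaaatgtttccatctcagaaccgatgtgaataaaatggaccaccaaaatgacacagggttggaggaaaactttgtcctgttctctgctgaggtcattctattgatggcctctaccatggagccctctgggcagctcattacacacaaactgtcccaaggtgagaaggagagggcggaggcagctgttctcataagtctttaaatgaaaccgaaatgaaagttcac
The Ctsd window held 2 matches, 245 and 98 bases before the start, and the Ctsl window 1 match, 236 bases before it. The Ctsc and Ctss windows held none, though Ctsc rose by 0.98 and Ctss by 0.42 over that step, against 1.24 for Ctsd and 0.75 for Ctsl. The Ctsl window ends in a pyrimidine run and ag, letters also found at the ends of introns, and the arrays do not show which start site was used. Of the 7 windows 3 held CACGTG (Ctsd, Ctsl and 1 of the 2 windows of Ctsa, where 1 of its matches was 12 bases before the start), against 7.15% of 32851 windows of all genes. The PU.1 pattern GAGGAAGT, searched on both strands, was in 2 of them (Ctsc, 151 bases before the start, and Ctss, 2 bases before it), against 3.2% of all. A match is a stretch of letters and not a bound site, and a window without one says nothing of the factor.

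Ctsb, a cysteine protease that acts as endopeptidase and dipeptidyl carboxypeptidase, had the largest falls through 6 h of the 9 genes in both genotypes. The wild type arrays read 12.66 and 12.58 unstimulated, then 11.68 and 11.50 after 1 h, 11.01 and 10.96 after 3 h, 10.88 and 10.89 after 6 h and 11.63 and 11.49 after 24 h. The TAK1-deleted arrays read 12.59 and 12.56, 11.86 and 11.63, 10.94 and 10.69, 10.82 and 10.61, and 12.13 and 12.00. At 24 h both TAK1-deleted arrays lay above both wild type arrays, and both genotypes were below their 0 h arrays. From 0 to 6 h Ctsb fell by 1.73 ± 0.12 in wild type (3.33-fold, limma adjusted p = 1.62e-08) and by 1.86 ± 0.12 in TAK1-deleted cells (3.64-fold, adjusted p = 9.38e-09). From 6 to 24 h it rose by 0.67 ± 0.12 (adjusted p = 0.000688) and by 1.35 ± 0.12 (adjusted p = 1.1e-06). At 24 h TAK1-deleted exceeded wild type by 0.50 ± 0.12 (1.42-fold, adjusted p = 0.0111), a call lost without replicate 1 of TAK1-deleted (0.107) or replicate 2 of wild type (0.0821) cells. The difference between genotypes in the change from 0 to 24 h was 0.55 ± 0.17 without a call (adjusted p = 0.0578). It was called with the replicate number as a block (0.00129).

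Ctsh, Ctss and Ctsc fell in both genotypes by 3 h and had means at 24 h between those of 6 h and 0 h, and none of them was called between genotypes at any time. Ctsh, an aminopeptidase, had pairs of 11.71 with 11.51 in wild type and 11.43 with 11.27 in TAK1-deleted cells at 0 h, and of 10.20 with 10.21 and 10.36 with 10.12 at 6 h. At 24 h its arrays read 10.72 and 10.54 in wild type and 10.96 and 10.98 in TAK1-deleted cells, so that both TAK1-deleted arrays lay above. The 24 h difference of 0.33 ± 0.18 was not called (limma adjusted p = 0.274), with a 95% interval of -0.04 to 0.71. It was called with the replicate number as a block (0.0283). Ctsh fell at 3 h by 1.56 ± 0.18 in wild type (adjusted p = 2.97e-06) and by 1.29 ± 0.18 in TAK1-deleted cells (adjusted p = 2.3e-05). The difference of 24 h from 0 h was -0.98 ± 0.18 in wild type (adjusted p = 0.000296) and -0.38 ± 0.18 without a call in TAK1-deleted cells (0.129, or 0.00818 with the block). The TAK1-deleted rise of 0.73 ± 0.18 from 6 to 24 h (adjusted p = 0.00852) was lost without replicate 2 of 6 h (0.094) or of 24 h (0.0553).

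Ctss, the endoprotease that makes the last cuts in the invariant chain in B cells, read 11.86 and 11.78 in wild type and 11.86 and 11.81 in TAK1-deleted cells at 0 h. At 3 h the wild type pair was 10.96 with 10.94 and the TAK1-deleted pair 10.79 with 10.89. At 24 h the pairs were 11.43 with 11.08 and 11.44 with 11.30. The genotypes overlapped at 0 and 24 h, and the wild type arrays lay just above at 3 h. The 24 h difference was 0.12 ± 0.12 (95% interval -0.14 to 0.37, limma adjusted p = 0.658). Ctss fell at 3 h by 0.87 ± 0.12 in wild type (adjusted p = 2.07e-05) and by 0.99 ± 0.12 in TAK1-deleted cells (adjusted p = 7.04e-06). It was still lower at 24 h, with differences of -0.57 ± 0.12 (adjusted p = 0.00106) and -0.46 ± 0.12 (adjusted p = 0.0088). The latter call was lost without replicate 1 of TAK1-deleted 0 h (0.0568) or replicate 2 of 24 h (0.0862). So was the TAK1-deleted fall of 0.41 ± 0.12 at 1 h (adjusted p = 0.0239), without replicate 1 (0.131) or 2 (0.0698) of 0 h or replicate 2 of 1 h (0.213). The TAK1-deleted rise of 0.42 ± 0.12 from 6 to 24 h (adjusted p = 0.0212) was lost without replicate 1 (0.104) or 2 (0.0864) of 6 h or replicate 1 of 24 h (0.17).

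Ctsc, the dipeptidyl peptidase that activates granule serine proteases, fell at 1 h and had no call against 0 h at 24 h. In wild type cells its pairs of arrays at 0, 1, 3, 6 and 24 h were 12.56 with 12.37, 11.77 with 11.35, 11.69 with 11.57, 11.87 with 11.74, and 12.35 with 12.21. In TAK1-deleted cells they were 12.54 with 12.39, 11.80 with 11.61, 11.42 with 11.32, 11.51 with 11.41, and 12.54 with 12.33. Wild type arrays stood above TAK1-deleted ones at 3 and 6 h, and the genotypes overlapped at 24 h. The differences of -0.26 ± 0.13 at 3 h and -0.35 ± 0.13 at 6 h were not called (limma adjusted p = 0.595 and 0.263), and both were called lower with the replicate number as a block (0.0394 and 0.0049). The fall at 1 h was 0.91 ± 0.13 in wild type (adjusted p = 9.96e-05) and 0.76 ± 0.13 in TAK1-deleted cells (adjusted p = 0.000691). At 24 h its differences from 0 h were -0.19 ± 0.13 (adjusted p = 0.282, or 0.0405 with the block) and -0.03 ± 0.13 (adjusted p = 0.913). The wild type rise of 0.47 ± 0.13 from 6 to 24 h (adjusted p = 0.0202) was lost without replicate 1 (0.0559) or 2 (0.148) of 6 h or replicate 1 of 24 h (0.136).

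Ctsa and Ctsz had the smallest ranges over the 20 arrays, 0.849 and 0.606. Ctsa, the carboxypeptidase that also protects β-galactosidase and neuraminidase in the lysosome, ranged over all arrays from 11.85 to 12.70. In wild type cells its pairs of arrays were 12.66 with 12.48 unstimulated, 11.99 with 11.85 after 6 h and 12.17 with 12.07 after 24 h. In TAK1-deleted cells they were 12.70 with 12.43, 12.26 with 11.90, and 12.26 with 12.14. Both genotypes were lower at 6 h, and the genotypes overlapped at each of these times. Ctsa fell at 6 h by 0.65 ± 0.16 in wild type (limma adjusted p = 0.00331) and by 0.48 ± 0.16 in TAK1-deleted cells (adjusted p = 0.0267). The genotype difference at 24 h was 0.08 ± 0.16 (95% interval -0.26 to 0.42, adjusted p = 0.848). The TAK1-deleted 6 h call was lost without replicate 1 of 0 h (0.205) or replicate 2 of 6 h (0.269). In wild type the 3 h fall of 0.55 ± 0.16 (adjusted p = 0.0107) was lost without replicate 1 of 0 h (0.0884) or replicate 2 of 3 h (0.117). The wild type 24 h fall of 0.45 ± 0.16 (adjusted p = 0.0309) was lost without replicate 1 of 0 h (0.181) or replicate 1 (0.0664) or 2 (0.141) of 24 h. The block added Ctsa in TAK1-deleted cells at 1, 3 and 24 h (0.0158, 0.000431 and 0.000617).

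Ctsz, a carboxypeptidase also called cathepsin X, was the only one of the 8 genes tested at 24 h that was called higher there than at 0 h. It ranged from 12.09 to 12.70 over all arrays, and read 12.38 and 12.33 in wild type and 12.45 and 12.25 in TAK1-deleted cells at 0 h. At 24 h it read 12.68 and 12.60, and 12.70 and 12.60, above every 0 h array, with the genotypes overlapping. It rose by 0.29 ± 0.09 in wild type (limma adjusted p = 0.0166) and by 0.30 ± 0.09 in TAK1-deleted cells (adjusted p = 0.0214). The first call was lost without replicate 1 of 24 h (0.104) or replicate 2 of 0 h (0.0831), and the second without replicate 1 of 24 h (0.162) or replicate 2 of 0 h (0.217). The genotype difference at 24 h was 0.01 ± 0.09, with a 95% interval of -0.18 to 0.20 (adjusted p = 0.98).

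**Figure D4:**
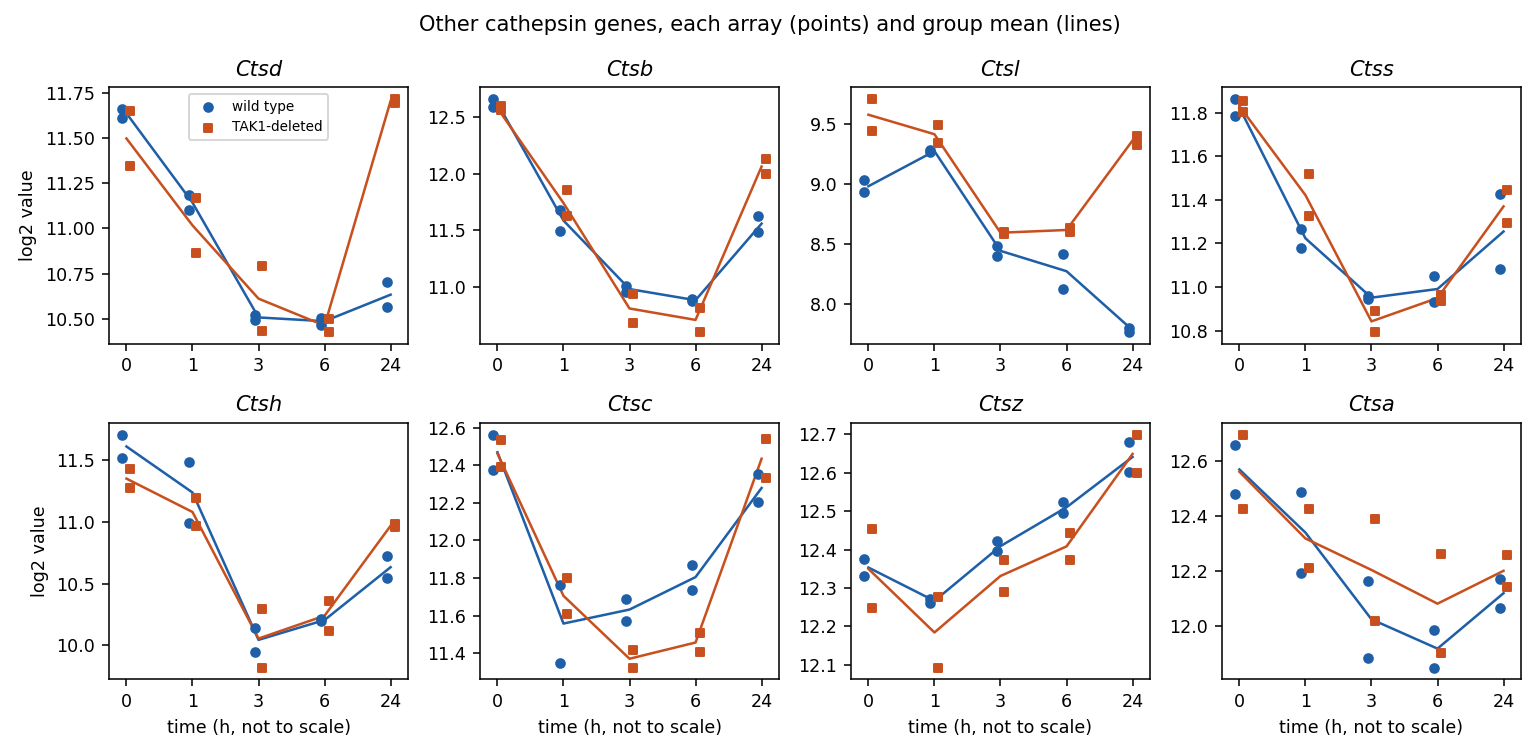
Log2 values (vertical axis) of the cathepsin genes other than Ctse against hours of anti-IgM (horizontal axis), 1 panel for each gene with its own scale, 1 point for each array and lines through the group means. All but Ctsz are lower at 3 and 6 h than at 0 h by array means. Arrays of Ctsd, Ctsl, Ctsb and Ctsh do not overlap between genotypes at 24 h, as for 51.0% of all genes, and Ctsh was not called there.

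Counted over the family, most of the 9 genes fell in both genotypes by 3 h of anti-IgM. In wild type 4 fell at 1 h (13.9% of all genes tested were called lower), 8 at 3 h (23.2%) and 8 at 6 h (19.1%). At 24 h 6 of the 8 tested without Ctse fell (20.2%), and 1 rose, Ctsz (23.6% of all genes were called higher). In TAK1-deleted cells 4 fell at 1 h (10.2%), 7 at 3 h (22.1%) and 8 at 6 h (17.3%). At 24 h 2 of the 8 tested without Ctse fell, Ctsb and Ctss (12.7%), and 1 rose, Ctsz (14.9%). The median difference from 0 h over the 9 genes at 6 h was -0.71 in wild type and -0.96 in TAK1-deleted cells, against 0.05 and 0.06 over all genes. Over the 8 without Ctse at 24 h it was -0.77 and -0.29, against 0.07 and 0.04. With the replicate number as a block the wild type 1 h count was 6 lower and 1 higher, against 26.1% and 17.2% of all genes. It added falls of Ctsa (adjusted p = 0.0189) and Ctsh (0.0101) and a rise of Ctsl (0.0404). The TAK1-deleted 24 h count was 4 lower and 1 higher with the block, against 20.6% and 24.1% of all genes. The TAK1-deleted 1 h count was 2 without replicate 1 of 0 h or without replicate 2 of 1 h. Marker levels also fell from 0 to 3 h. The monocyte or macrophage mean level was 10.04 at 0 h and 7.55 to 7.62 at 3 h in wild type. In TAK1-deleted cells it was 9.95 to 10.18 and 7.51 to 7.62. The pan B mean level was 12.72 to 12.91 and 11.77 to 11.98 in wild type, and 12.72 to 12.85 and 11.71 to 12.01 in TAK1-deleted cells. The part of these markers in the cathepsin falls was not tested.

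Between genotypes the calls were few and all higher in TAK1-deleted cells. They were Ctse and Ctsl at 0 h, against 1.5% of all genes called higher and 0.819% called lower, and Ctse alone at 1 h (2.07%), 3 h (1%) and 6 h (0.927%). Apart from Ctse, which was selected on this difference at 24 h, only Ctsl was called before 24 h, at 0 h. At 24 h 3 of the 8 genes tested were higher, Ctsl, Ctsd and Ctsb (7.04% of all genes were called higher and 5.18% lower). The median of these 8 differences at 24 h was 0.25, against 0.000324 over all genes. The count at 0 h was 1 without replicate 1 of either genotype or without replicate 2 of wild type. With the replicate number as a block, the counts at 3 and 6 h were 1 higher and 1 lower, the lower gene being Ctsc, against 4.5% and 7.85% of all genes called lower. Under the same block the 24 h count was 4 with Ctsh, against 14.7% called higher.

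**Figure D5:**
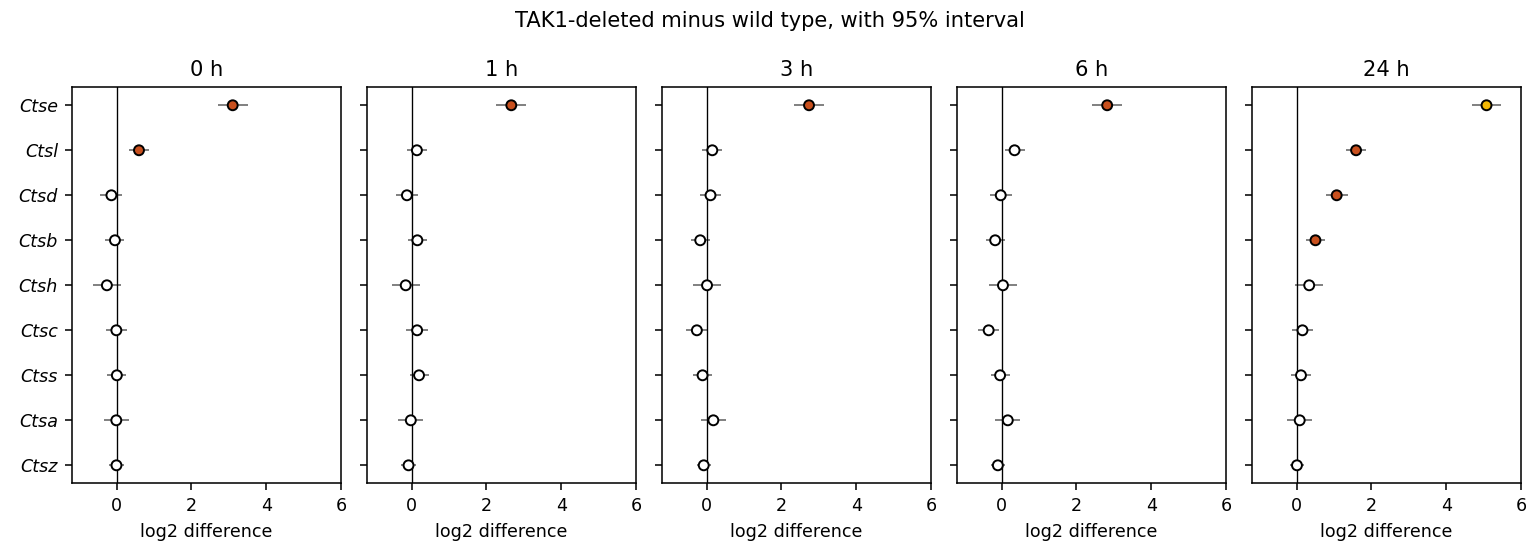
Log2 difference, TAK1-deleted minus wild type (horizontal axis), of each of the 9 cathepsin genes at each time, with the 95% interval from limma as a bar. Filled orange points were called higher, white points were not called, and the yellow point is Ctse at 24 h, which was not tested; Ctsl and Ctsd stand at 1.59 and 1.07 at 24 h.

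The difference between genotypes in the change from 0 h was called by limma for 0 of the 9 genes at 1 h (0.109% of all genes), 3 h (0.0585%) and 6 h (0.284%). At an unadjusted p below 0.05 it was lower for 1, 1 and 0 of them. At 24 h it was called higher for 2 of the 8 tested, Ctsd and Ctsl (4.62% of all genes). With the replicate number as a block it was called for 4, adding Ctsb and Ctsh, against 11.1% of all genes called higher. For Ctse it was -0.44 ± 0.26 at 1 h, -0.37 ± 0.26 at 3 h and -0.28 ± 0.26 at 6 h, with 95% intervals of -1.0 to 0.12, -0.93 to 0.19 and -0.84 to 0.28. At 24 h it was 1.97 ± 0.26 and is given with no test.

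The comparison of 24 h with 6 h was chosen once the values were known. In wild type cells 2 of the 8 genes tested without Ctse rose, Ctsb and Ctsc (9.02% of all genes), and 1 fell, Ctsl (10.4%). In TAK1-deleted cells 6 of the 8 rose, all but Ctsa and Ctsz (10.8%). The step differed between genotypes for 3 of the 8, Ctsl by 1.24 ± 0.18 (limma adjusted p = 0.000642), Ctsd by 1.09 ± 0.20 (adjusted p = 0.00367) and Ctsb by 0.68 ± 0.17 (adjusted p = 0.0337), where 3.24% of all genes were called higher. The Ctsb difference was lost without any of 7 of the 8 arrays it rests on, with adjusted p up to 0.19. The block raised the wild type count to 5 higher and 1 lower, adding Ctsa (0.0412), Ctsh (0.00458) and Ctss (0.0274), against 15.7% and 22.4% of all genes. It also added Ctsz in TAK1-deleted cells (0.0085) and Ctsc in the difference (0.00364). The wild type count was 1 without replicate 2 of 6 h. From 6 to 24 h in TAK1-deleted cells 14 of 17 monocyte or macrophage markers and 7 of 13 neutrophil markers also rose, and in wild type 6 and 0 of them rose while 3 and 7 fell. The neutrophil count in TAK1-deleted cells was 4 without replicate 2 of 6 h. With the block 15 monocyte or macrophage and 10 neutrophil markers rose in TAK1-deleted cells, against 17.7% of all genes. In wild type 9 and 0 of them then rose while 3 and 9 fell. The part of these markers in the cathepsin steps was not tested.

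Genes of the lysosome other than cathepsins are given beside the 7.04% of all genes called higher and 5.18% called lower between genotypes at 24 h. Of these, 7 of 34 other lysosomal hydrolases were higher and 0 lower in TAK1-deleted cells (median 0.19). Acp5, the tartrate-resistant acid phosphatase of macrophages and osteoclasts, was higher by 1.54 ± 0.13 (limma adjusted p = 2.31e-06). Lgmn, the asparaginyl endopeptidase that processes several cathepsins, was higher by 0.81 ± 0.12 (adjusted p = 0.000452) and is named after its value was seen. The hydrolase count was 3 without replicate 1 of TAK1-deleted or replicate 2 of wild type 24 h, and 11 higher and 1 lower with the block. Of 18 lysosomal membrane proteins 2 were higher (median 0.28), with Gpnmb at 1.33 ± 0.16 (adjusted p = 5.23e-05), a count of 1 without replicate 1 or 2 of TAK1-deleted or replicate 2 of wild type 24 h and of 10 with the block. Of 15 subunits of the V-ATPase, the proton pump that acidifies lysosomes, 0 were called by limma (median 0.05), 1 was lower at an unadjusted p below 0.05, and 1 was called without replicate 2 of wild type 24 h and 1, lower, with the block. Without the block the V-ATPase and the membrane protein counts lie near or under the share over all genes. With the block 14.7% of all genes were called higher and 14.1% lower, and the 10 of 18 membrane proteins lie above that share. Of 8 genes of lysosomal enzyme sorting 1 was higher, the sorting receptor Sort1 at 1.29 ± 0.16 (adjusted p = 4.91e-05), with 1 more gene called lower under the block. At 0 h none of these 4 lists had a call, with or without the block, nor a gene at an unadjusted p below 0.05.

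Of 11 genes of the TFEB family and its regulators 2 were higher at 24 h (median 0.13), on the same background. The MiT/TFE factor Tfec was higher by 1.20 ± 0.14 (limma adjusted p = 3.93e-05). The count was 1 without replicate 1 of wild type or either replicate of TAK1-deleted 24 h, and 3 higher and 1 lower with the block. Of 9 genes of MHC class II loading 3 were higher (median 0.37), among them Ifi30, a thiol reductase of the lysosome, at 0.95 ± 0.18 (adjusted p = 0.00262), and H2-Ob, a chain of the H2-O inhibitor of peptide loading, at 0.73 ± 0.10 (adjusted p = 0.000124). With the block 5 of the 9 were higher. All 9 fell from 0 to 24 h in both genotypes, with or without the block. Over that time 20.2% of all genes were called lower in wild type and 12.7% in TAK1-deleted cells, or 26.8% and 20.6% with the block. With the block 21 of the 34 hydrolases fell in wild type and 16 in TAK1-deleted cells. Without it 18 of them fell in wild type and 11 in TAK1-deleted cells. The last count, with 2 higher, came to 8 calls in all without replicate 1 of TAK1-deleted 0 h.

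Among the inhibitors, the secreted cystatin Cst3 was higher in TAK1-deleted cells at 24 h by 0.66 ± 0.10 (limma adjusted p = 0.000482). Cst7, a cystatin that inhibits Ctsc and other cathepsins in immune cells, was lower, with a difference of -0.84 ± 0.16 (adjusted p = 0.00228). The third call among the 4 inhibitors tested, Cstb, was higher by 0.52 ± 0.13 (adjusted p = 0.0178), and was lost under 3 of the 4 arrays left out, with adjusted p up to 0.172. Of the other cathepsins 3 passed the filter. Ctsg was higher by 1.61 ± 0.16 at 24 h (adjusted p = 1.03e-05), while Ctso, with values of 9.78 to 11.59 over the arrays, and Ctsw, with 7.52 to 9.95, were not called there. With the block 2 of the 3 were called.

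At 24 h most markers of neutrophils and of monocytes or macrophages were higher in TAK1-deleted cells, as the called cathepsins were. Over all genes 7.04% were called higher and 5.18% lower at 24 h, or 14.7% and 14.1% with the replicate number as a block. Of the neutrophil markers 12 of 13 were higher and 0 lower in TAK1-deleted cells (median 1.63), with S100a8 at 2.47 ± 0.23 (limma adjusted p = 4.84e-06) and Mmp8 at 2.30 ± 0.20 (adjusted p = 2.29e-06). Of the monocyte or macrophage markers 14 of 17 were higher and 0 lower (median 1.59), with Hmox1 at 2.73 ± 0.18 (adjusted p = 1.89e-07) and Marco at 2.18 ± 0.15 (adjusted p = 3.15e-07). Of 7 dendritic cell markers 3 were higher (median 0.67), with Siglech at 2.07 ± 0.19 (adjusted p = 4.27e-06), and 5 with the block. Of the 12 pan B cell markers 2 were higher (median 0.19), a count of 0 to 1 with any 1 of the 4 arrays left out and of 4 with the block. Erythroid, T, NK and marginal zone B cell lists had 1, 4, 1 and 3 markers higher and 0 lower, of 10, 9, 10 and 10 tested. With the block they had 3, 7, 1 and 5. The erythroid count was 0 without either TAK1-deleted 24 h array, the T cell count 0 to 1 and the marginal zone count 0 to 2 with an array left out. Of 8 plasma cell markers 1 was higher and 2 were lower, or 3 and 3 with the block, and 1 was called without replicate 1 of wild type cells. Among them Jchain was lower, with a difference of -2.36 ± 0.14 (adjusted p = 6.17e-08). The part of these cells in the Ctsl, Ctsd and Ctsb differences was not tested.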

How the data were processed

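Each of the 20 samples is 1 Affymetrix Mouse Gene 1.0 ST array of mouse splenic B cell RNA. The deposited log2 values were made by the authors by RMA with Expression Console 1.0, per the submitters' processing notes. RMA corrects background, quantile-normalizes the arrays together and summarises the probes of a set, so levels of different probe sets are not comparable here. The genome build is not given in the sources used here. Array medians were 7.37 to 7.52, and replicates correlated at 0.979 to 0.994 over the genes tested. The number of arrays, 2 a group, limits the precision.

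Probe sets were named from the platform annotation, matched by gene ID to RefSeq symbols. Of 35556 probe sets, 21789 had 1 symbol, 1621 had several and 12146 were not listed. Those of 1 symbol were kept where 2 or more arrays reached the overall median (7.45), the brightest by mean for each gene, which left 11968 genes. limma 3.58.1 (R 4.3.3) was fitted to group means over all 20 arrays, with a variance trend and Benjamini-Hochberg adjustment within each comparison. There were 17 comparisons (8 against 0 h, 5 between genotypes, 4 between the genotypes' changes), and 3 on the step from 6 to 24 h were added after the values were seen. Ctse was selected on TAK1-deleted against wild type at 24 h so it got no test in any comparison that uses 24 h arrays of either genotype, and is left out of their counts, although a test in wild type cells had been planned. On simulated data the fit recovered 100% of the genes changed by 2 on the log2 scale between genotypes at 24 h. It recovered 82% to 84% of those changed by 1 and made 9 false calls. The simulated arrays were independent, without the shared deviations of same-numbered arrays described below, so these rates may not hold for the real arrays.

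The members and the 17 gene lists (198 of 236 symbols tested) were chosen with earlier results of these data known. The lists were other cathepsins, their inhibitors, lysosomal hydrolases, membrane proteins, V-ATPase, sorting, TFEB family, MHC class II loading and markers of 9 cell types. The genes named from a list were its largest called changes, at most 3, some of them omitted here. Genes like Ctse were the 6 with the highest r. Same-numbered arrays of different groups deviated together (45 of 45 correlations over 0.1, from 0.191 to 0.769, median 0.535). The labels do not say what such arrays share, and the main fit does not use the replicate numbers. Blocked values stand beside the calls of the 9 genes that they change and beside some of the list counts. Other list counts also move with the block and are given without it. The alternatives were no or a stricter filter, centring or quantile scaling, no variance trend, the block, mean of probe sets, only the arrays compared, and each array left out.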

Additional observations from a re-analysis of the deposited data

Results flagged for a closer look

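The change from 0 to 24 h differed between genotypes for Ctsd by 1.21 ± 0.20 (limma adjusted p = 0.000897) and for Ctsl by 0.99 ± 0.18 (adjusted p = 0.002). In both genes wild type cells were lower at 24 h than at 0 h, and TAK1-deleted cells were within 0.22 of their 0 h mean. Both differences rest on 8 arrays, 2 in each of 4 groups, and each held when any 1 of them was left out.

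The step from 6 to 24 h, added after the values were seen, also differed between genotypes. The difference was 1.24 ± 0.18 for Ctsl (limma adjusted p = 0.000642), which fell in wild type and rose in TAK1-deleted cells. It was 1.09 ± 0.20 for Ctsd (adjusted p = 0.00367), which rose in TAK1-deleted cells and was not called in wild type. It was 0.68 ± 0.17 for Ctsb (adjusted p = 0.0337), which rose in both genotypes, and this call was lost without 7 of the 8 arrays in turn. Monocyte or macrophage and neutrophil markers rose over the same step in TAK1-deleted cells, and their part was not tested.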

How the results depend on the processing

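Over the 8 settings other than leaving out an array, 1390 of 1440 values of the 9 genes kept their direction and their side of the threshold, 18 lost their call, 32 gained one and 0 turned. With the replicate number as a block 18 gained a call and 0 lost one. It gave 7 called genes for wild type 1 h against 0 h (4 without it), 5 for TAK1-deleted 24 h against 0 h (3), 2 between genotypes at 3 h and 2 at 6 h (1 each), 4 for the difference in change at 24 h (2) and 6 for wild type 24 h against 6 h (3). Apart from these 18 calls, the block changed no other call of the 9 genes. List counts also moved with the block, and not all of these are given. Quantile scaling gave 5 for TAK1-deleted 24 h against 0 h, 5 for wild type 24 h against 6 h and 4 for the difference in change at 24 h. Centring each array on its median gave 2 for TAK1-deleted 1 h against 0 h, where 4 were called. A fit of only the arrays compared gave 2 for the same comparison and 1 between genotypes at 0 h, where 2 were called. With each array left out, 52 of 71 calls held. Counts ranged from 2 to 4 for TAK1-deleted 1 h against 0 h, from 1 to 2 between genotypes at 0 h and from 1 to 3 for wild type 24 h against 6 h. The Ctse difference from 6 to 24 h in TAK1-deleted cells was -0.28 without replicate 2 of 6 h and turned to 0.0666 without replicate 1 of 6 h. Centring removed 10 calls, among them Ctse in wild type at 3 h (limma adjusted p = 0.0578) and 6 h (0.116). Centring and quantile scaling moved the median of all genes by at most 0.0626 and 0.0401. Counts over all genes depended more on the setting. Between genotypes at 24 h, 1462 were called, against 3442 with the block, 2379 with quantile scaling and 699 without replicate 2 of TAK1-deleted cells. At 0 h 278 were called, against 837 with the block, 506 with quantile scaling and 119 without replicate 1 of wild type cells. The percentages of all genes called move with these counts. With 2 arrays a group, changes of under about 0.5 in Ctse, Ctsh and Ctsa were at the edge of what could be called.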

Other observations

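The neighbours of Ctse on the chromosome were looked up beside it. Of the 10 tested genes nearest to it in the RefSeq order, 5 on each side, none was called between genotypes at 0 h, with Dyrk3 at the lowest limma adjusted p of 0.208, where 1.5% of all genes were called higher and 0.819% lower. At 24 h Rab7b, which encodes a Rab GTPase of late endosomes and lies next to Ctse, was higher in TAK1-deleted cells by 0.48 (adjusted p = 0.0232), and the other 9 were not called, where 7.04% of all genes were called higher and 5.18% lower. Both counts are near the share over all genes.

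Several cathepsins of other tissues were measured and did not pass the filter on low values. Ctsk, the collagenase of osteoclasts, read 6.32 to 6.98 over the 20 arrays and Ctsf 6.59 to 7.16, both below the median of all values (7.45). Ctsj, Ctsq, Ctsr, Cts6, Cts7 and Cts8, the placental cluster of the mouse, read between 4.50 and 5.96.

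Before stimulation the preparations also differed in markers of lymphoid cells, where 0.819% of all genes were called lower and 1.5% higher. Of 10 NK cell markers 7 were lower in TAK1-deleted cells at 0 h (median -1.12), a count of 2 without replicate 1 of wild type and 3 without replicate 2 of TAK1-deleted cells. Of 9 T cell markers 4 and of 8 plasma cell markers 3 were lower, among the latter Jchain at -5.31 ± 0.14 (limma adjusted p = 1.39e-12). With an array left out the T cell count was 2 to 6 and the plasma cell count 1 to 2. With the replicate number as a block the lower NK, T and plasma cell markers numbered 10, 7 and 7, against 2.89% of all genes called lower. In the erythroid list Rhag was higher by 3.21 ± 0.31 (adjusted p = 1.43e-05) and Slc4a1 by 2.89 ± 0.22 (adjusted p = 8e-07), and the count of 10 of 10 was 8 to 10 with an array left out.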
